A study of Mus musculus with 32 samples.

Results

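The genes described here encode the calcium handling core of the endoplasmic reticulum (ER): the SERCA pumps Atp2a2 and Atp2a3, the IP3 receptors Itpr1, Itpr2 and Itpr3, the calcium sensors Stim1 and Stim2, and the plasma membrane channels Orai1, Orai2 and Orai3. They were taken by symbol from the deposited count table, and all 10 were found among its 20234 genes. The cells were mouse embryonic fibroblasts (MEFs), grown as connective tissue cells from embryos, and the study, by its title, addressed cellular responses to lasting stress. Of the 4 groups, the control had no drug (0 h of thapsigargin), the next had 1 h of it and another 16 h, and in the last group a PERK inhibitor was added to 16 h of thapsigargin for its final 4 h. Each group had 4 replicates. No group was taken when the inhibitor was added, and none had the inhibitor without thapsigargin. A change that the inhibitor reversed and one that it prevented therefore cannot be told apart. Nor can an effect on the stress be told from another effect of the inhibitor. Below, a rise or fall with the inhibitor means a difference from the 16 h group, unless control is named. Both the cytosolic RNA and the polysome RNA, meaning mRNA with more than 4 ribosomes on it, were sequenced for all 16 samples. The labels name neither the genotype or strain of the cells, the inhibitor, nor a dose, and they do not say that the replicates came from separate cultures, so each p-value reflects only how these samples vary, a variation that may be technical.

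Thapsigargin binds SERCA, the pump that moves calcium from the cytosol into the ER, and so empties the store through its leak. IP3 receptors are the ER channels that open in response to the messenger IP3 and release stored calcium. STIM proteins sense the fall of calcium inside the ER and open Orai channels in the plasma membrane, a route called store-operated calcium entry that refills the store. Loss of ER calcium disturbs protein folding and activates PERK, which phosphorylates the translation factor eIF2, slows general translation and favours the translation of Atf4. Several proteins of this group are thus the target of the drug itself or respond to its direct effect.

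Libraries held between 19.32 and 41.78 M counts. Levels are given in CPM, counts per 1 M reads scaled with TMM factors over all 32 libraries, and fold changes come from edgeR (quasi-likelihood test), with p-values adjusted by the Benjamini-Hochberg method over all genes tested and called at an adjusted p under 0.05. Folds were fitted and scaled over the 16 libraries of a kind, so they can differ somewhat from the ratio of the levels printed beside them. Such scaling makes each level relative to the other genes of its library. A change in the total amount of cytosolic or polysome RNA would not show in a level, a fold or a polysome to cytosolic ratio. The treatment labels were checked on Hspa5, which encodes the ER chaperone BiP and rose 3.06-fold at 1 h and 16.7-fold at 16 h in cytosolic RNA, and on Atf4, whose ratio of polysome to cytosolic RNA rose 5.91-fold at 1 h and fell 6.47-fold with the inhibitor. All 8 fibroblast markers examined were above 1 CPM, while the summed level of muscle markers was at most 6.49 CPM and that of neuronal markers at most 18.4 CPM, reached at 16 h. The fibroblast sum moved with the conditions, from 7130 to 9990 CPM in control, 17000 to 20500 at 1 h, 4040 to 4700 at 16 h and 3710 to 4280 with the inhibitor, and its part in the changes below was not tested. In bulk RNA, fewer cells that express a gene and less RNA per cell cannot be told apart.

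Per kilobase of coding length, Atp2a2 stood far above the other members in control cytosolic RNA, at 192 ± 13.8 CPM per kb (SD, n = 4). Orai3 followed at 39.1 ± 2.41, Stim2 at 32.6 ± 1.98 and Orai2 at 29.4 ± 2.56 CPM per kb, and the libraries of Stim2 and Orai2 overlapped. Stim1 had 14.7 ± 0.916 and Itpr1 9 ± 0.69 CPM per kb. Orai1 (5.89 ± 1.73), Itpr3 (4.83 ± 0.973) and Itpr2 (4.56 ± 0.262 CPM per kb) overlapped with each other, and Atp2a3 was lowest at 0.23 ± 0.0286 CPM per kb. At 16 h the order of cytosolic levels had changed: Atp2a3 reached 9.05 ± 0.83 CPM per kb, with libraries that overlapped those of Stim2 (9.58 ± 0.434) and Itpr1 (8.16 ± 0.433). The muscle relatives were near the floor, Atp2a1 with 0 to 7 counts per library, and the SERCA inhibitors Pln and Sln with 0 and at most 1 count. Of the ryanodine receptors, the other class of ER release channels, Ryr1 had 4 to 59 counts per library, Ryr2 at most 6 and Ryr3 at most 3.

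On GRCm38 (mm10), 6 of the members lie on chromosomes 5 and 6. Atp2a2 spans chr5:122453513-122502225 on the minus strand and Orai1 chr5:123015074-123030456 on the plus strand of the same chromosome, with Stim2 at chr5:53998499-54121057 and Orai2 at chr5:136147459-136170713. Itpr1 spans chr6:108213096-108551109 and Itpr2 chr6:146108299-146502223, the longest loci of the group. Itpr3 lies at chr17:27057304-27122223, Stim1 at chr7:102267806-102437319, Orai3 at chr7:127769815-127775150 and Atp2a3 at chr11:72961169-72993044. All are protein-coding, and counts cover exons as far as the counting, which is not described in the sources used here, did so. Antisense genes overlap Orai1 at its start (Gm2479), Itpr3 (Itpr3os) and Itpr1 (Gm44040). They have no row in the count table. Gm2479 (chr5:123007299-123015080) reaches only a few bases into Orai1. Whether Itpr3os and Gm44040 overlap exons of the member was not computed. Where an antisense gene shares exon bases with a member, reads there cannot be told apart without a known strand setting.

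Calls were frequent over all genes, so the number of members called carries little by itself. In cytosolic RNA, 8 of 10 members were called at 1 h against control, 3 higher and 5 lower (56.2% of all genes, 28.1% higher and 28.1% lower). At 16 h against control 9 were called, 2 higher and 7 lower (77.3% of all genes, 37.9% higher and 39.4% lower). At 16 h against 1 h, 4 were higher and 5 lower (75.3% of all genes, 37.7% higher and 37.7% lower). With the inhibitor, 2 were higher and 5 lower than at 16 h (74.7% of all genes, 42.2% higher and 32.5% lower), and 2 higher and 7 lower than in control (73.3% of all genes, 38.1% higher and 35.2% lower). The median log2 change of the members in cytosolic RNA was -0.22 at 1 h and -0.24 at 16 h against control, beside 0 and -0.01 over all genes. In polysome RNA, 4 members were higher and 4 lower at 1 h against control (79.5% of all genes, 41.1% higher and 38.5% lower), and again 4 and 4 at 16 h against control (85.1% of all genes, 42.3% higher and 42.9% lower). At 16 h against 1 h, 3 were higher and 6 lower (78.5% of all genes, 38.4% higher and 40% lower). The inhibitor left 1 higher and 7 lower than at 16 h (82.8% of all genes, 42.1% higher and 40.7% lower), and 2 higher and 7 lower than in control (77.1% of all genes, 36.8% higher and 40.3% lower). The median log2 change of the members in polysome RNA with the inhibitor against 16 h was -0.89, beside 0.04 over all genes. Comparisons with control share the same 4 control samples, and those with 16 h the same 4 samples at 16 h. Such shares of members are near the background of all genes in most comparisons, and the description below rests on the size and direction of single genes.

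The level of a gene on polysomes relative to its level in the cytosol is called its translational efficiency, or ratio. It was tested in 1 fit over all 32 libraries that kept the pair of libraries of each sample together. For this ratio, 5 members were higher and 3 lower at 1 h against control (67.8% of all genes, 33.4% higher and 34.4% lower), 4 higher and 1 lower at 16 h against control (64.2% of all genes, 31.1% higher and 33% lower), and 3 higher and 2 lower at 16 h against 1 h (28.1% of all genes, 14.5% higher and 13.6% lower). With the inhibitor 6 were called against 16 h, all lower (60.1% of all genes, 26.4% higher and 33.7% lower), and 1 higher and 4 lower against control (43.4% of all genes, 16.3% higher and 27.1% lower). Changes of this ratio followed the length of the coding sequence over all genes. For the 334 genes with at least 6000 coding nucleotides the median log2 change was 1.55 at 1 h and 1.28 at 16 h against control and -1.17 with the inhibitor against 16 h, while for the 3389 genes of 900 to 1500 nucleotides it was -0.38, -0.34 and 0.16. The members lie far apart on this scale, from 8.247 kb (Itpr1), 8.103 kb (Itpr2) and 8.01 kb (Itpr3), over 3.132 kb (Atp2a2) and 2.262 kb (Stim2), to 0.792 kb (Orai2). The IP3 receptors were all at percentile 99.1 of the genes in the count table that have a coding sequence, tested or not. The main changes of the members in polysome RNA and in the ratio are therefore given also with offsets that remove the smooth trend of each library against coding length, called length-corrected below. A length-corrected value states how a gene moved against genes of like length, and which value better reflects translation was not tested.

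**Figure D1:**
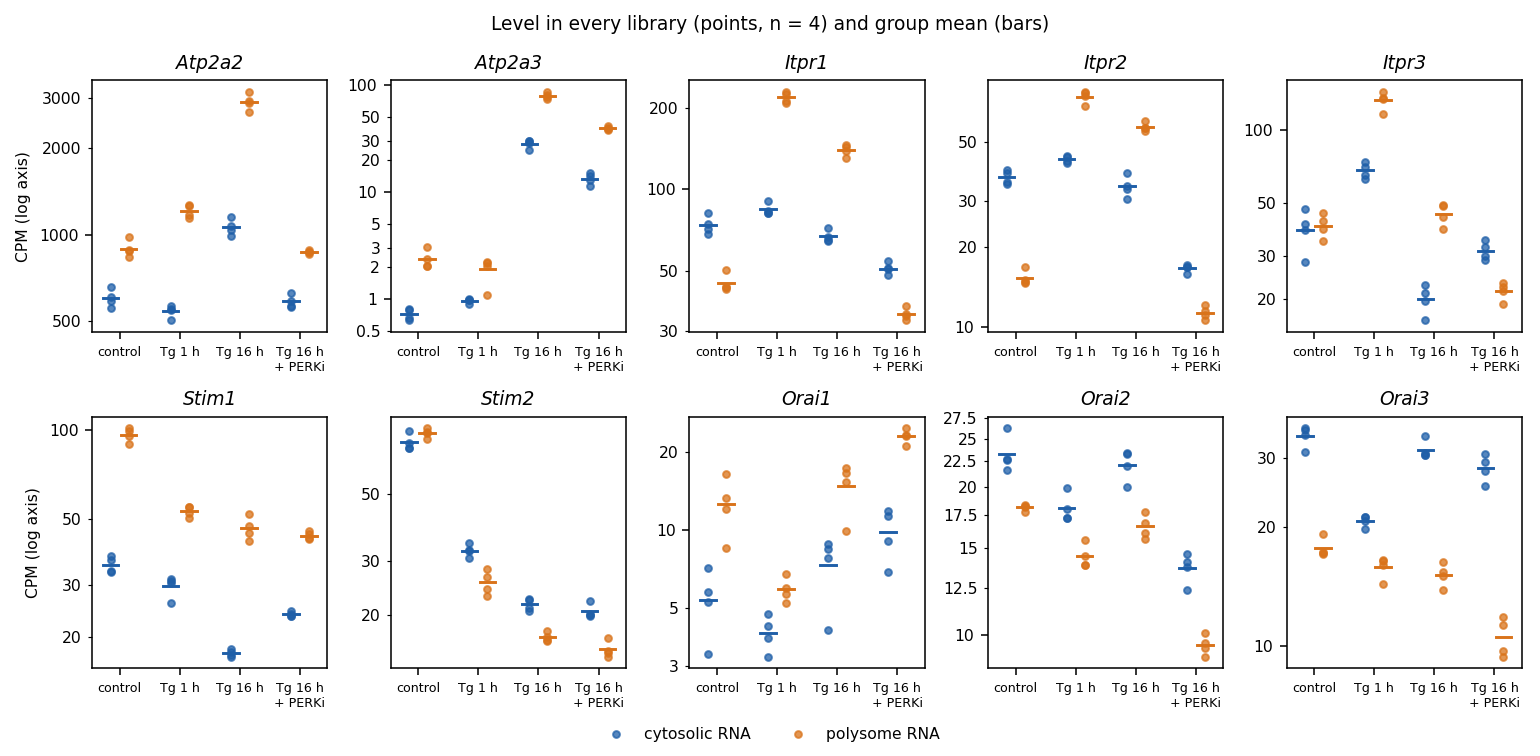
Level of each member in every library, in CPM on a log axis, for cytosolic RNA (blue) and polysome RNA (orange) in the 4 conditions (Tg, thapsigargin; PERKi, PERK inhibitor). Points are libraries (n = 4 per group) and bars are group means. Atp2a3 rises from under 1 to about 28.2 CPM in cytosolic RNA, Stim2 falls from 73.7 to 21.7 CPM, and polysome levels of Itpr1 and Itpr2 are high at 1 h and 16 h only.

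Atp2a2, which encodes SERCA2, the widely expressed pump and main target of thapsigargin in these cells by level, had 555, 587, 606 and 658 CPM in the control cytosolic libraries. At 1 h it had 501 to 561 CPM, overlapping with control, and the change was small (1.13-fold lower). At 16 h the libraries had 985, 1036, 1067 and 1155 CPM, all above those of control, a 1.61-fold rise (log2 change 0.69 ± 0.0543 SE). With the inhibitor the level was 557 to 626 CPM, 1.75-fold below 16 h, and all 4 libraries lay inside the range of control. The difference from control (1.08-fold lower) did not pass the test (edgeR adjusted p = 0.0702), and passed it with DESeq2's size factors (log2 change -0.153, adjusted p = 0.0228).

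The polysome level of Atp2a2 moved further. Control libraries had 836, 875, 882 and 981 CPM, and those at 16 h 2670, 2868, 2928 and 3149 CPM, a 3.08-fold rise. With the inhibitor the 4 libraries lay within 858 to 883 CPM, 3.29-fold below 16 h and inside the range of control. The polysome to cytosolic ratio rose 1.53-fold at 1 h and 1.85-fold at 16 h and fell 1.85-fold with the inhibitor, with no overlap between the groups in any of these 3 comparisons. Length-corrected, the ratio at 1 h was level with control (log2 change 0.03, adjusted p = 0.758), while the rise at 16 h (0.36) and the fall with the inhibitor (-0.36) passed edgeR's quasi-likelihood test. The polysome change at 1 h turned from 0.5 to -0.34 on the log2 scale under that correction, and those at 16 h (1.08) and with the inhibitor (-1.09) kept their direction.

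Atp2a3, which encodes SERCA3, a pump best known from blood cells, platelets and endothelium, showed the highest change of the members. Control cytosolic libraries held 0.626, 0.658, 0.784 and 0.804 CPM, with at least 23 counts each, and libraries at 1 h held 0.885 to 1 CPM, which did not pass the test (edgeR adjusted p = 0.0603). At 16 h the libraries held 24.5, 28.4, 29.9 and 30 CPM, a 35.8-fold rise (log2 change 5.16 ± 0.122 SE). The inhibitor group held 11.3, 12.9, 14.1 and 15 CPM, 2.04-fold below 16 h and still 17.6-fold above control. The inhibitor group did not lie at the control level: the groups with and without inhibitor were separate, and both were separate from control. The markers of blood and of endothelial cells, in which SERCA3 is known, summed to at most 1.63 and 1.21 CPM at 16 h. Their sums in control were 3.29 to 4.77 and 1.3 to 1.59 CPM. Over the cytosolic libraries the blood markers Csf1r and Cd68 had means of 1.41 and 1.08 CPM, and Cd3e was at 0. The endothelial markers Pecam1 and Cdh5 had means of 0.463 and 0.511 CPM. Whether such cells had a part in the rise of Atp2a3 was not tested.

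In polysome RNA, Atp2a3 went from 2.03 to 3.05 CPM in control to 74.1, 77.7, 80.4 and 86.7 CPM at 16 h (31.7-fold, and 21.8-fold length-corrected), and to 37.6 to 41.5 CPM with the inhibitor. At 1 h the length-corrected polysome change was 2.14-fold lower and called by edgeR (adjusted p = 6.71e-06). Its polysome to cytosolic ratio fell 1.66-fold at 1 h, where the lowest of the 4 polysome libraries held 21 counts. In an analysis of partial variance, which fits the polysome level with the cytosolic level as a covariate, that fall was not called (log2 change -0.6, limma adjusted p = 0.0793). Its estimate equals a change of the ratio only where the fitted slope on the cytosolic level is 1. For the members the slopes ran from -0.159 (Itpr3) to 0.587 (Atp2a3), so here and below its values do not test the ratio itself. As counted, the ratio was not called at 16 h (1.16-fold lower) or with the inhibitor against 16 h (1.04-fold higher). No change of the ratio was thus detected beside the large rise of both levels at 16 h. A rise of the ratio at 16 h against 1 h (1.43-fold, edgeR adjusted p = 0.0491) was lost in most alternatives, with 0.155 when replicate 4 at 1 h was left out. Length-corrected, the ratio was called lower at 16 h (log2 change -0.74) and higher with the inhibitor (0.59). The rise at 16 h against 1 h kept its call under that correction (0.57, edgeR adjusted p = 0.0279).

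Promoter sequences were read from RefSeq (GRCm38.p6) for 8 of the members, over 250 bases before the start, with none for Atp2a2 and Itpr1. Those of Atp2a3 and Stim2 are shown because these genes had the highest and the lowest change in cytosolic RNA at 16 h. The search, on both strands, was for ERSE (CCAAT, 9 bases of any kind, then CCACG), ERSE-II (ATTGG, 1 base, then CCACG), UPRE (TGACGTGG), CARE (TGATGNAA) and CRE (TGACGTCA), elements known from ER stress and ATF4 target genes, and for the general GC box (GGGCGG) and CCAAT box (CCAAT, also part of ERSE). Capitals mark matches. The Atp2a3 window is chr11:72960919-72961168 and that of Stim2 chr5:53998273-53998522, both on the plus strand. The start of Stim2 in RefSeq lies slightly inside the locus given above.
Atp2a3: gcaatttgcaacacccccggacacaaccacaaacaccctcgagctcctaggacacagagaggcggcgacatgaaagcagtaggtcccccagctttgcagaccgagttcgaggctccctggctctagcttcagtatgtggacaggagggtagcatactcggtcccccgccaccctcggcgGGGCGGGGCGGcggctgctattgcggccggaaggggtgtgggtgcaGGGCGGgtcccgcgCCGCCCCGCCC
Stim2: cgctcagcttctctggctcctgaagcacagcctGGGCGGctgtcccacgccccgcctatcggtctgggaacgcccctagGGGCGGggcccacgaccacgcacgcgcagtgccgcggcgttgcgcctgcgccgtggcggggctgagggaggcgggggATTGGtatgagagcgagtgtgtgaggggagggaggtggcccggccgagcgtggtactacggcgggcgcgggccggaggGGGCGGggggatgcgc
The Atp2a3 window held 5 GC boxes and that of Stim2 3 GC boxes and 1 CCAAT box. None of the 8 windows held an ERSE, ERSE-II, UPRE, CARE or CRE in these letters, which are rare: 0.113%, 0.0304%, 0.563%, 3.45% and 1.55% of 32851 promoters had one. GC boxes were in all 8 windows, beside 32.7% of all promoters, and CCAAT boxes in those of Itpr2, Stim2, Orai1 and Orai3, beside 33.8%. A match is a description of these letters only.

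As counted, and relative to the other genes of a library, all 3 IP3 receptors rose in polysome RNA at 1 h. They fell there with the inhibitor, and the cytosolic RNA of Itpr1 and Itpr2 changed less at 1 h. Itpr1, the receptor best known from neurons, had 68.8, 71.4, 74.8 and 82 CPM in control cytosolic RNA. Levels at 1 h (81.7 to 90.7 CPM, 1.12-fold higher) and at 16 h (64.8 to 72.4 CPM, 1.21-fold lower) overlapped with control though both were called. In polysome RNA the same gene rose from 43.1 to 50.5 CPM in control to 209, 211, 226 and 229 CPM at 1 h, 5.04-fold. At 16 h it had 131.1 to 145.7 CPM (2.92-fold above control), and with the inhibitor 32.9 to 37.1 CPM, 3.96-fold below 16 h and 1.35-fold below control. Length-corrected, the polysome changes were 1.36-fold at 1 h, 1.45-fold at 16 h and 1.8-fold lower with the inhibitor against 16 h, all called by edgeR. No polysome library of a stressed group without inhibitor came near the control range, and none with the inhibitor lay above it.

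Itpr2, a receptor of many non-neuronal tissues, followed the same course at a lower level. Its cytosolic libraries held 34.9 to 39.2 CPM in control, 41.7 to 44.2 CPM at 1 h and 30.6 to 38.3 CPM at 16 h. With the inhibitor they held 15.8, 16.8, 16.9 and 17.1 CPM, 1.97-fold below 16 h, beside 1.26-fold for Itpr1. In polysome RNA, Itpr2 rose from 14.7 to 16.8 CPM in control to 69, 74.7, 77 and 77.9 CPM at 1 h (5.09-fold) and 55.5 to 60.4 CPM at 16 h (3.54-fold). With the inhibitor it held 10.6 to 12.1 CPM, 4.99-fold below 16 h. Length-corrected, these changes were 1.39-fold and 1.76-fold higher and 2.28-fold lower, all called by edgeR.

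Itpr3, the third receptor, had the widest spread of the family in control cytosolic RNA, with 28.4, 38.4, 41 and 47.1 CPM. It rose to 63, 65.4, 70.5 and 73.6 CPM at 1 h (1.73-fold), fell to 16.2, 19.6, 21.1 and 22.8 CPM at 16 h (2.13-fold below control), and stood at 29 to 34.9 CPM with the inhibitor, 1.65-fold above 16 h. So the cytosolic RNA of Itpr3 went up with the inhibitor while that of Itpr1 and Itpr2 went down. Against control the inhibitor group overlapped, and the call there (1.29-fold lower) was lost without control replicate 2 or 3 or without inhibitor replicate 2 or 4 (edgeR adjusted p from 0.0601 to 0.0964). In polysome RNA, Itpr3 rose from 34.6 to 45.5 CPM in control to 116.9, 135.1, 136.3 and 144.6 CPM at 1 h (3.46-fold). It was not called at 16 h (38.9 to 49 CPM, adjusted p = 0.412) and fell to 19 to 23.2 CPM with the inhibitor.

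As counted, the polysome to cytosolic ratio made up most of the polysome rise of Itpr1 and Itpr2, while for Itpr3 the polysome rise of 1.79 at 1 h on the log2 scale divided into 0.79 in cytosolic RNA and 0.91 in the ratio. For Itpr1 the log2 ratio was -0.901 to -0.568 in control, 1.21 to 1.49 at 1 h, 0.856 to 1.17 at 16 h and -0.647 to -0.452 with the inhibitor. The changes were a 4.29-fold rise at 1 h, a 3.41-fold rise at 16 h and a 3.08-fold fall with the inhibitor. For Itpr2 they were 4.21-fold and 4.08-fold up and 2.5-fold down, and for Itpr3 1.88-fold and 2.16-fold up and 3.36-fold down. Each of these 9 changes separated the 4 samples of one group from the 4 of the other, and the share of all genes that did so was not computed. Of genes with at least 6000 coding nucleotides, 90.4% had a higher ratio at 1 h and 89.5% at 16 h than in control. With the inhibitor 6% of them were higher than at 16 h, so these directions are common among long genes. In the analysis of partial variance the rise of Itpr3 at 16 h was not called (log2 change 0.01, limma adjusted p = 0.982). The slope of Itpr3 on the cytosolic level was -0.159 there, so that value stands near its polysome change (0.09) and is no test of the ratio. With the inhibitor, the mean log2 ratios of the 3 receptors were nearly equal (-0.559, -0.56 and -0.56), whereas in control they ran from -1.27 for Itpr2 to 0.072 for Itpr3.

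Much of this size was shared with other long mRNAs. Length-corrected, the log2 change of Itpr1 went from 2.1 to 0.58 at 1 h, from 1.77 to 0.53 at 16 h and from -1.62 to -0.62 with the inhibitor. For Itpr2 the corrected values were 0.57, 0.8 and -0.33, and all 6 values of these 2 genes passed edgeR's quasi-likelihood test. Itpr3 behaved otherwise: its corrected change at 1 h was -0.58 (adjusted p = 0.00827) and thus reversed, that at 16 h was -0.12 and not called (adjusted p = 0.61), and only the fall with the inhibitor kept its direction (-0.76). The polysome change of Itpr3 turned likewise, to -0.08 at 1 h and -0.92 at 16 h, and with the inhibitor against 16 h it was 0.07 and not called (adjusted p = 0.545). The small cytosolic changes of Itpr1 and Itpr2 at 1 h and 16 h also changed sign under the correction, to -0.07 and -0.03 at 1 h and 0.03 and 0.04 at 16 h, and none of these 4 was called. The cytosolic changes of Itpr3 at 1 h (0.55) and 16 h (-0.8), and the falls of Itpr1 (-0.2) and Itpr2 (-0.84) with the inhibitor, kept their direction and call.

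**Figure D2:**
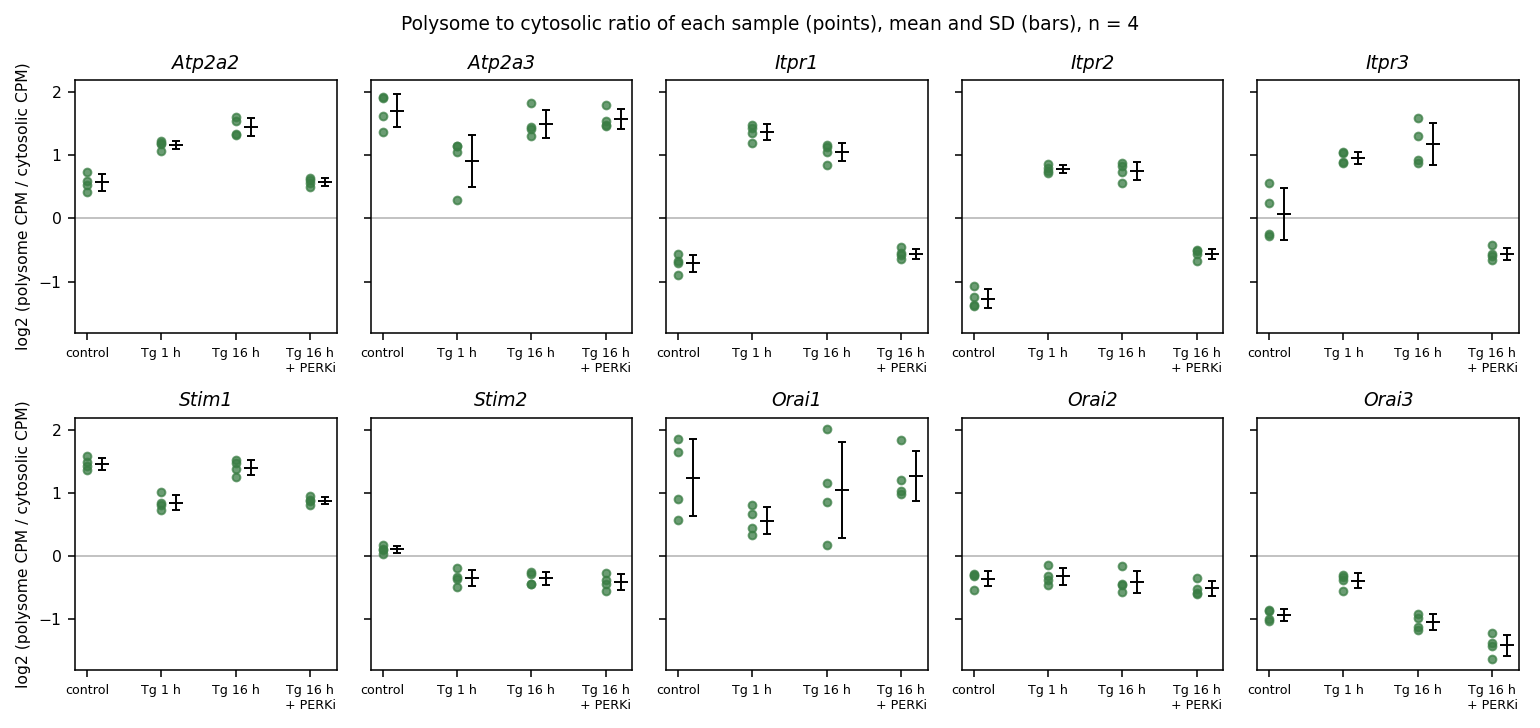
Log2 ratio of polysome to cytosolic CPM for each member and sample (points, n = 4 per condition), with the mean and SD beside them. Ratios of Itpr1 and Itpr2 lie below 0 in control and with the inhibitor and above 0 at 1 h and 16 h, and Orai1 has the widest spread within groups.

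**Figure D3:**
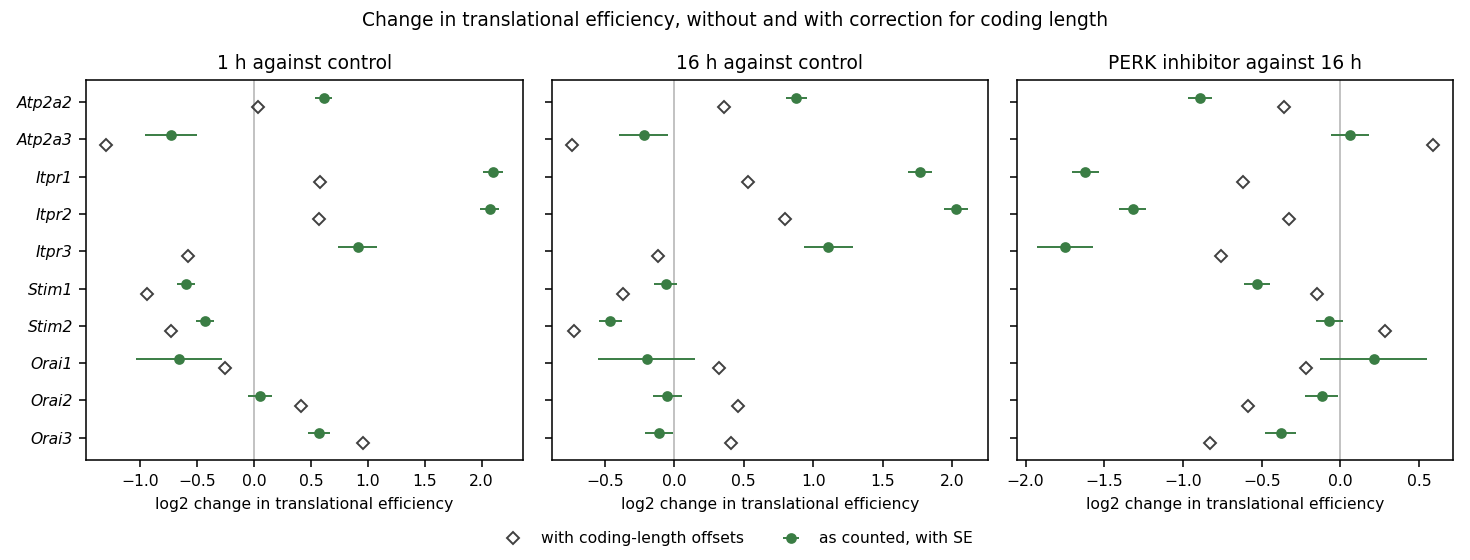
Log2 change in translational efficiency of each member in 3 comparisons, as counted (filled circles with SE) and with coding-length offsets (open diamonds, no error shown). For Itpr1 and Itpr2 the corrected values lie much nearer to 0 than the counted ones. Those of Itpr3 cross 0 at 1 h (0.91 to -0.58) and at 16 h (1.11 to -0.12) against control. For the short Orai genes the corrected values move the other way than for the IP3 receptors.

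The 2 calcium sensors both fell under thapsigargin. Stim2, which encodes the sensor that responds to small losses of ER calcium, had 70.5, 70.8, 73.5 and 80.2 CPM in control cytosolic RNA. It held 30.8, 32.5, 32.6 and 34.4 CPM at 1 h (2.29-fold lower) and 20.6, 21.1, 22.4 and 22.6 CPM at 16 h (3.72-fold lower, log2 change -1.89 ± 0.0539 SE). No library of one of these 3 groups overlapped with another. With the inhibitor the level was 19.8 to 22.2 CPM, which overlapped with 16 h and was not called (1.01-fold, edgeR adjusted p = 0.735). The log2 change with the inhibitor was -0.02 with an SE of 0.0537.

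The polysome level of Stim2 fell further, from 75.4 to 82.1 CPM in control to 23, 24.4, 26.7 and 28.4 CPM at 1 h (2.95-fold) and 16.4 to 17.8 CPM at 16 h (4.93-fold). Length-corrected, these falls were 4.17-fold and 6.26-fold. With the inhibitor it was 14.6 to 16.8 CPM and not called against 16 h (adjusted p = 0.107). Its ratio fell 1.35-fold at 1 h and 1.37-fold at 16 h, and length-corrected these falls were larger (-0.73 and -0.72 on the log2 scale). The corrected log2 changes against 16 h were 0.32 in polysome RNA and 0.28 for the ratio, both called higher by edgeR.

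Stim1, which encodes the main activator of Orai1 after strong store depletion, fell later. Cytosolic libraries held 33.1, 33.4, 36.4 and 37.5 CPM in control, 26 to 31.4 CPM at 1 h (1.2-fold lower) and 17.2, 17.3, 17.8 and 18.2 CPM at 16 h (2.18-fold lower). With the inhibitor they held 23.6 to 24.6 CPM, 1.41-fold above 16 h and 1.54-fold below control, with no overlap on either side. Stim1 with the inhibitor thus lay between 16 h and control. No difference of Stim2 from 16 h was detected in the fit of all 4 conditions. With only the inhibitor and 16 h groups fitted, cytosolic Stim2 was called lower (log2 change -0.154, edgeR adjusted p = 0.0336).

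In polysome RNA most of the fall of Stim1 was present at 1 h. Levels went from 89.5, 95.9, 99.2 and 102 CPM in control to 50.5 to 55 CPM at 1 h (1.74-fold lower) and 42.2 to 52 CPM at 16 h (2.19-fold lower). Length-corrected, these falls were 2.55-fold and 2.84-fold. With the inhibitor they were 42.8 to 45.7 CPM and not called against 16 h (adjusted p = 0.315), so the higher cytosolic level was not matched on polysomes. The ratio fell 1.52-fold at 1 h, was not called at 16 h against control (1.04-fold lower), and fell 1.45-fold with the inhibitor, a fall that was not called in the analysis of partial variance (limma adjusted p = 0.343). Length-corrected, the ratio at 16 h was called lower than control (-0.37), and the fall with the inhibitor was not called (-0.15, edgeR adjusted p = 0.131). The corrected polysome change with the inhibitor was 0.41, called higher, in place of -0.06.

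Orai1, the pore subunit of the classical store-operated channel, was the least abundant Orai gene in cytosolic RNA and varied most between replicates. Control libraries held 3.32, 5.29, 5.77 and 7.12 CPM, those at 1 h 3.25 to 4.76 CPM, those at 16 h 4.14, 7.8, 8.44 and 8.86 CPM, and those with the inhibitor 6.93, 9.13, 11.4 and 11.8 CPM. The groups overlapped in all 5 comparisons. Calls were made at 16 h against 1 h (1.68-fold higher, edgeR adjusted p = 0.0197) and with the inhibitor against control (1.73-fold higher). The first was lost without 1 h replicate 2 (0.0641), 16 h replicate 2 (0.0505) or 16 h replicate 3 (0.0569).

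On polysomes the groups of Orai1 were better separated. Control libraries held 8.57, 12, 13.3 and 16.5 CPM, those at 1 h 5.24 to 6.75 CPM (2.04-fold lower, 1.43-fold length-corrected), those at 16 h 9.96, 15.3, 16.7 and 17.3 CPM, and those with the inhibitor 21.1, 23.2, 23.4 and 24.8 CPM. The inhibitor group lay above all others, 1.58-fold over 16 h and 1.76-fold over control. As counted, Orai1 was the 1 member called higher with the inhibitor against 16 h in polysome RNA. Under length correction, Stim1 (log2 change 0.41) and Stim2 (0.32) were called higher there, and Orai1 was not. The coding sequence of Orai1 has 63.3% G and C, at percentile 95.5 of the genes in the count table that have a coding sequence. Length-corrected, the rise over 16 h was not called (log2 change 0.11, adjusted p = 0.575), and with offsets for both length and GC content, an alternative chosen after seeing the data, it was -0.15 and not called. Against control the rise kept its call under both (0.75 and 0.73). As counted, no change of its ratio was called by edgeR, with SE of 0.34 to 0.376 on the log2 scale. With offsets for length and GC content the ratio of Orai1 was called higher at 16 h against control (log2 change 0.504, edgeR adjusted p = 0.0254) and against 1 h (0.588, 0.0288). The analysis of partial variance called Orai1 lower at 1 h against control (-1.1, limma adjusted p = 0.000403) and higher at 16 h against 1 h and with the inhibitor. Its slope on the cytosolic level was -0.136, so these values stand near the polysome changes (-1.03 at 1 h) and are not changes of the ratio.

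Orai2 and Orai3, the other channel subunits, fell with the inhibitor on polysomes. Cytosolic Orai2 had 21.6 to 26.3 CPM in control, 17.3 to 19.9 CPM at 1 h (1.3-fold lower), 20 to 23.3 CPM at 16 h and 12.3, 13.8, 14.1 and 14.6 CPM with the inhibitor (1.55-fold below 16 h). Its small change at 16 h against control (1.15-fold lower, edgeR adjusted p = 0.0301) was lost without control replicate 2 (0.13) or without 16 h replicate 1 or 4 (0.103 and 0.061). Polysome levels of Orai2 ran from 17.8 to 18.4 CPM in control to 15.7 to 17.8 CPM at 16 h and 9.06 to 10.1 CPM with the inhibitor, 1.71-fold below 16 h (2.67-fold length-corrected). Its ratio was not called in any comparison as counted, and length-corrected it was called higher at 1 h (0.41) and 16 h (0.46) and lower with the inhibitor (-0.59). The polysome falls of Orai2 at 1 h and 16 h turned into rises under that correction (0.24 and 0.29).

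Cytosolic Orai3 had 31.1, 34.2, 35.3 and 35.7 CPM in control and 19.8 to 21.3 CPM at 1 h, a 1.66-fold fall with no overlap. At 16 h it was back at 30.5 to 34.2 CPM, 1.4-fold above 1 h and 1.18-fold below control, and the inhibitor group (25.5 to 30.6 CPM) was not called against 16 h. Polysome Orai3 did not pass the test at 1 h (14.4 to 16.6 against 17.1 to 19.2 CPM, edgeR adjusted p = 0.285), though the libraries did not overlap. Its ratio rose 1.48-fold at 1 h, a rise that was not called in the analysis of partial variance (log2 change 0.03, limma adjusted p = 0.931). With the inhibitor polysome Orai3 held 9.42, 9.74, 11.3 and 11.9 CPM (1.41-fold below 16 h, 2.12-fold length-corrected), and its ratio was 1.3-fold lower. The rise of the ratio at 1 h and its fall with the inhibitor were larger when length-corrected (0.96 and -0.83), and its polysome changes at 1 h and 16 h against control turned to 0.42 and 0.19.

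Shares within a family do not depend on the scaling of libraries. They were computed from counts per kb of coding length and compared by an exact two-sided permutation test of 4 against 4 samples. Its smallest possible p is 0.0286, and Benjamini-Hochberg adjustment was over 80 tests, of which 55 passed. Every test that passed had this smallest p (adjusted p = 0.0416), so a pass means only that the 2 groups did not overlap. Shares of a family add up to the whole, so the tests are not independent, and other gene families were not tested for comparison. Atp2a3 made up 0.12% ± 0.0107 of SERCA in control cytosolic RNA (SD, n = 4) and 2.62% ± 0.358 at 16 h. In polysome RNA with the inhibitor its share was 4.37% ± 0.201, above the 2.7% ± 0.287 at 16 h. So Atp2a2 held at least 95.4% of SERCA in every library, and the summed level of both was set by it.

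Within the IP3 receptors, Itpr1 was the main form, at 49% ± 3.88 of cytosolic RNA in control and 54.9% ± 1.33 at 16 h, a difference that did not pass the exact permutation test. Itpr3 went from 26.3% ± 5.15 in control to 35.3% ± 2.14 at 1 h, 16.8% ± 2.81 at 16 h and 32.4% ± 2.48 with the inhibitor. Itpr2 fell from 28.2% ± 1.81 at 16 h to 16.8% ± 0.854 with the inhibitor. On polysomes the share of Itpr3 fell from 40.5% ± 4.27 in control to 19% ± 2.21 at 16 h and was 32.4% ± 2.86 with the inhibitor. The 2 latter changes, and those of cytosolic Itpr3 at 1 h and with the inhibitor, passed the test.

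Stim2 held 68.8% ± 2.47 of cytosolic STIM in control and 53.6% ± 3.11 at 1 h, 56.4% ± 1.54 at 16 h and 47.4% ± 1.64 with the inhibitor. On polysomes it held 46.3% ± 1.45 in control, so that Stim1 was already the main form there, and 27.7% ± 1.91 at 16 h. The Orai family shifted most with the inhibitor. The polysome share of Orai1 was 24% ± 4.83 in control, 15.1% ± 0.723 at 1 h, 29.5% ± 5.08 at 16 h and 51.1% ± 0.9 with the inhibitor, where each library lay between 50.1% and 51.8%. Orai2 and Orai3 then held 24.4% ± 1.37 and 24.5% ± 1.88. In cytosolic RNA of the same samples Orai3 stayed the main form at 53.7% ± 4.39 and Orai1 held 17.7% ± 3.34. The summed polysome level of the Orai genes was 54.7 ± 4.49 CPM per kb at 16 h and 49.6 ± 2.91 with the inhibitor, with overlapping libraries, so the composition moved more than the sum.

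**Figure D4:**
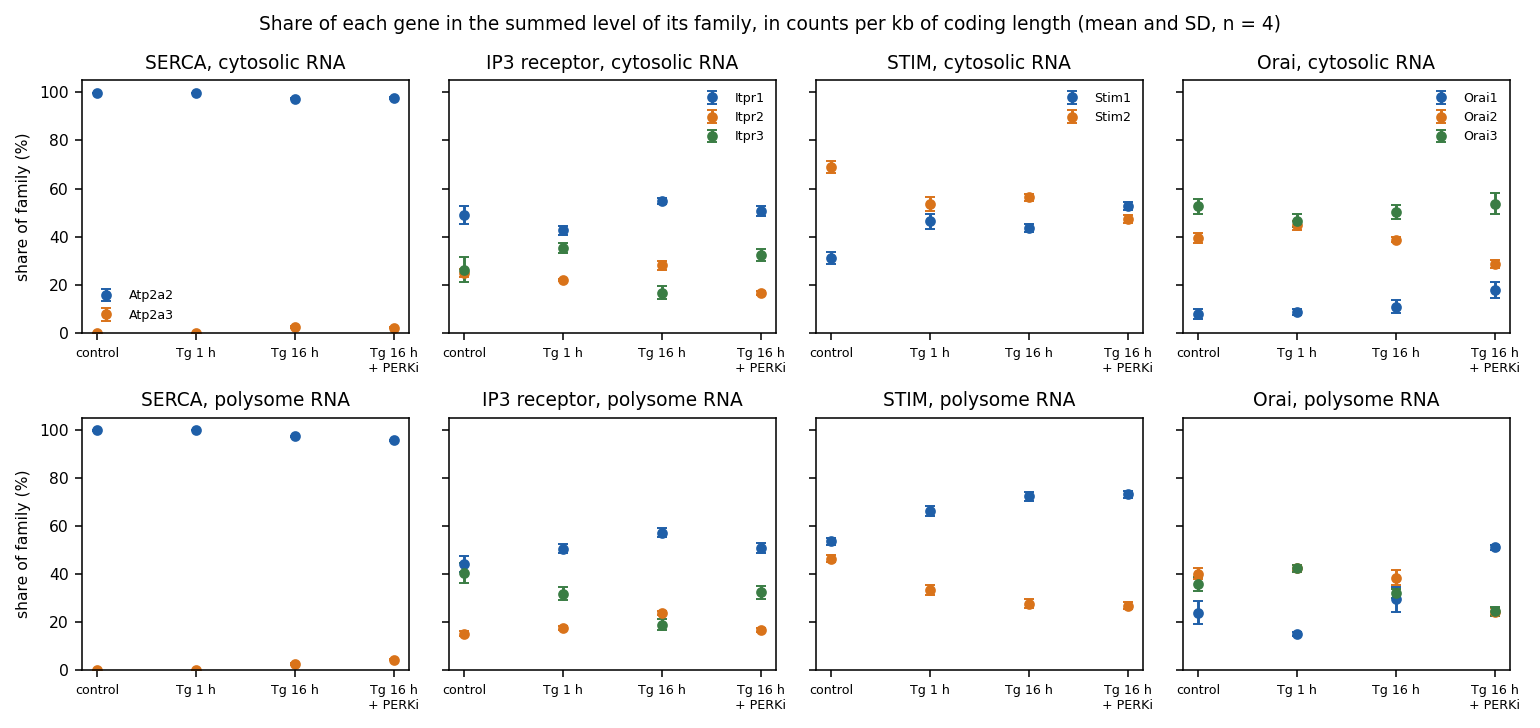
Share of each gene in the summed level of its family, in counts per kb of coding length, for cytosolic RNA (top) and polysome RNA (bottom), as mean and SD of 4 samples per condition. Atp2a2 holds nearly all of SERCA throughout, and the polysome share of Orai1 reaches 51.1% with the inhibitor.

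Other genes of the pathway were taken from lists by function. Of all genes tested in cytosolic RNA at 16 h against control, 37.9% rose and 39.4% fell, with a median log2 change of -0.01, and the counts of each list are read against these shares. Of 14 genes for ER calcium buffers and their relatives, 7 rose and 7 fell (median -0.1). Calr, the main calcium-storing protein of the ER, rose 5.33-fold (from 1481 ± 95.9 to 8628 ± 352 CPM) and the disulfide isomerase Pdia6 4.76-fold. Among 10 tested genes for other ER release and leak channels, 1 rose and 5 fell at 16 h (median -0.1, all genes 37.9% and 39.4%). Tmem38a, a potassium channel of the ER that supports calcium release, fell 2.21-fold and rose 3.03-fold with the inhibitor, and Tmbim6, an ER leak channel, fell 1.89-fold at 16 h.

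Of 23 tested genes for IP3 formation and IP3 receptor regulation, 7 rose and 13 fell in cytosolic RNA at 16 h (median log2 change -0.25, all genes 37.9% and 39.4%). Erlin1, part of the complex that leads active IP3 receptors to degradation, rose 2.36-fold and fell 4.53-fold with the inhibitor. Bcl2l1, whose product binds IP3 receptors, fell 3.42-fold, from 19 ± 1.13 to 6.07 ± 0.291 CPM. Of 14 tested regulators of STIM and Orai, 5 rose and 6 fell (median 0.1), near those same shares. Saraf, which turns off store-operated entry, rose 2.08-fold, from 74.2 ± 2.32 to 169 ± 1.91 CPM, while Cav1, a caveolar scaffold linked to the entry channels, fell 3.96-fold and rose 2.56-fold with the inhibitor. The ratio of Saraf fell 1.98-fold at 1 h and 1.54-fold length-corrected, where coding-length offsets for the lists were an alternative chosen after seeing the data.

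Of 7 tested genes for calcium export and Golgi pumps, none rose and 6 fell in cytosolic RNA at 16 h (median log2 change -0.74, against 37.9% and 39.4% of all genes), among them the plasma membrane pump Atp2b4 (7.91-fold, from 1.38 ± 0.212 to 0.189 ± 0.0974 CPM) and the Golgi transporter Tmem165 (1.55-fold). The mitochondrial exchanger Slc8b1 rose 2.97-fold with the inhibitor. Of 12 genes for mitochondrial calcium uptake, 8 rose and 3 fell in cytosolic RNA at 16 h (median 0.19). At 1 h the ratio of 8 fell and that of 1 rose (median -1.11, against 34.4% lower and 33.4% higher of all genes), and length-corrected the counts were again 8 and 1 (median -0.89, against 36.3% and 29.8%). Among them were the uniporter pore Mcu (2.28-fold lower, 1.76-fold length-corrected) and the outer membrane channel Vdac1 (3.04-fold and 2.31-fold). Of 12 genes for calcineurin and NFAT, the phosphatase and the transcription factors downstream of store-operated entry, 6 rose and 4 fell in cytosolic RNA at 16 h (median 0.2). Nfatc4 fell 6.69-fold and Nfatc2 5.72-fold, from 6.78 and 4.08 CPM in control, while Ppp3cc of calcineurin rose 1.94-fold, from 6.96 ± 0.772 to 14.8 ± 1.06 CPM. Of the SERCA regulators, 3 of 8 genes had enough counts, and Erp44, an ER chaperone, rose 1.38-fold while Tmx1, a membrane-bound thioredoxin of the ER, fell 1.67-fold.

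The genes most like the members were sought by Pearson's r of log2 CPM over the 32 libraries, among 9932 genes with a mean of at least 5 CPM. The libraries share conditions, RNA kind and base composition, so r is a description. Itpr1 was closest to Mtor (0.991), Huwe1 (0.99) and Thada (0.989), which encode very large proteins, and Itpr2 to Smc1a (0.988). Atp2a2 was closest to Rnmt (0.989) and Atp2a3 to Usp18 (0.988). Stim1 was closest to Afg3l1 (0.986), Stim2 to Atrnl1 (0.978) and Itpr3 to Amotl2 (0.986). Orai1 (Mief2, 0.941) and Orai2 (Tmem154, 0.917) had the lowest best match. Among the members themselves, Itpr1 and Itpr2 were most alike (0.952), Orai2 and Orai3 had 0.74 and Stim1 and Stim2 0.413, and Atp2a3 and Stim2 were most opposed (-0.777).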

How the data were processed

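The authors deposited a table of raw read counts per gene, with cytosolic and polysome libraries of 16 samples. Per the submitters' processing notes, HISAT, DESeq2 1.9.23 and the genome build mm10 were used. How reads were counted, with which annotation and strand setting, is not given in the sources used here. Groups were taken from the sample labels. Genes passing filterByExpr (count 10, total 15) were fitted in edgeR 4.0.16 (R 4.3.3) with TMM scaling and the robust quasi-likelihood test over the 4 conditions, 12366 genes in cytosolic RNA, 12065 in polysome RNA and 12561 for translational efficiency, with 12 residual degrees of freedom. P-values were adjusted by Benjamini-Hochberg over all genes tested. Total counts of 19.32 to 41.78 M per library set the precision, and same-group libraries differed by more than sampling noise (lowest chi-square per degree of freedom 2.32 over 48 pairs). Coding lengths, available for 96.6% of tested genes, and loci came from a GRCm38 annotation, and promoters from RefSeq (GRCm38.p6). The fits were tested on simulated data.

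Alternatives were DESeq2 1.42.0, other scalings, no filter, offsets from a smooth trend (lowess span 0.3) against coding length, the same with GC content (chosen after seeing the data), the replicate block, analysis of partial variance in limma 3.58.1, and each replicate left out. The named genes were the 10 members, Hspa5, Ddit3 and Atf4 as label checks, up to 3 called genes with the smallest p per related list at 16 h against control and up to 2 in each of 2 other comparisons, and the 3 genes most correlated with each member. Members and lists were chosen with earlier results of these data known. Marker sums not given in the report were at most 0.46 CPM for epithelial genes, and the neuronal marker Nefl and the muscle marker Myog were at 0. Some results these rules would name are not reported here.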

Additional observations from a re-analysis of the deposited data

Results flagged for a closer look

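In groups of 4 libraries, a value was singled out when its gap to the nearest of the others was large against the range of the group (Dixon's test at 95%). Of 120 groups, 9 were singled out, where chance gives about 5% of groups. Atp2a3 was low in polysome RNA of replicate 4 at 1 h, with 1.09 CPM against 2.035 to 2.219 in the others, and its polysome to cytosolic ratio there was 0.301 on the log2 scale, against 1.054 to 1.157. Without that sample the fall of the ratio at 1 h kept its call (log2 change -0.602, edgeR adjusted p = 0.0241), while in the analysis of partial variance over all samples it was not called (-0.601, limma adjusted p = 0.0793). In polysome RNA of control replicate 3, Itpr1 had 50.45 CPM (others 43.07 to 43.9) and Itpr2 16.84 CPM (others 14.65 to 15.01). Stim1 had 25.96 CPM in cytosolic RNA of replicate 4 at 1 h (others 30.54 to 31.36), and Stim2 22.23 CPM in that of inhibitor replicate 4 (others 19.82 to 20.2). The log2 ratio of Orai2 was -0.534 in control replicate 2 (others -0.319 to -0.281). Orai3 had 19.23 CPM in polysome RNA of control replicate 1 (others 17.13 to 17.36) and 34.16 CPM in cytosolic RNA of replicate 3 at 16 h (others 30.47 to 30.8).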

How the results depend on the processing

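Scaling by upper quartiles or DESeq2's size factors, no filter on low counts, DESeq2's test and fits of only the 2 conditions compared reversed no member in any measure. Leaving out each replicate in turn reversed none either, and gave 8 to 9, 8 to 9, 8 to 10, 7 to 8 and 8 to 9 members called in cytosolic RNA (1 h and 16 h against control, 16 h against 1 h, the inhibitor against 16 h and against control), 8 to 8, 8 to 9, 8 to 9, 8 to 9 and 9 to 10 in polysome RNA, and 8 to 8, 5 to 5, 4 to 5, 6 to 6 and 5 to 5 in translational efficiency. Offsets for length, or for length and GC content, raised the members called in translational efficiency at 16 h against control from 5 to 8 and 9. The share of all genes called under each of these alternatives is not given here, so such counts are not read as a result about the members. With coding-length offsets, the log2 changes in cytosolic RNA that turned were Itpr1 -0.069 and Itpr2 -0.032 (1 h against control), Itpr1 0.025 and Itpr2 0.042 (16 h against control), Itpr1 0.094 and Itpr2 0.074 (16 h against 1 h) and Itpr3 0.056 (the inhibitor against control). With coding-length offsets, the log2 changes in polysome RNA that turned were Atp2a2 -0.342, Itpr3 -0.076, Orai2 0.241 and Orai3 0.421 (1 h against control), Itpr3 -0.917, Orai2 0.286 and Orai3 0.192 (16 h against control), Itpr1 0.093 and Itpr2 0.346 (16 h against 1 h) and Itpr3 0.072, Stim1 0.407 and Stim2 0.319 (the inhibitor against 16 h). With coding-length offsets, the log2 changes in translational efficiency that turned were Itpr3 -0.582 (1 h against control), Itpr3 -0.115, Orai2 0.458 and Orai3 0.414 (16 h against control) and Stim2 0.277 (the inhibitor against 16 h). With offsets for coding length and GC content, chosen after seeing the data, the log2 changes in cytosolic RNA that turned were Itpr1 -0.06 and Itpr2 -0.022 (1 h against control), Itpr1 0.031 and Itpr2 0.045 (16 h against control) and Itpr1 0.091 and Itpr2 0.067 (16 h against 1 h). With offsets for coding length and GC content, chosen after seeing the data, the log2 changes in polysome RNA that turned were Atp2a2 -0.411, Orai2 0.249 and Orai3 0.47 (1 h against control), Itpr3 -0.543, Orai2 0.58 and Orai3 0.485 (16 h against control), Itpr1 0.051, Itpr2 0.301 and Orai3 0.015 (16 h against 1 h) and Stim1 0.34, Stim2 0.414 and Orai1 -0.146 (the inhibitor against 16 h). With offsets for coding length and GC content, chosen after seeing the data, the log2 changes in translational efficiency that turned were Atp2a2 -0.089 and Itpr3 -0.379 (1 h against control), Orai1 0.504, Orai2 0.705 and Orai3 0.644 (16 h against control), Itpr2 0.215 (16 h against 1 h) and Stim2 0.293 (the inhibitor against 16 h). With the replicate block and coding-length offsets together, the log2 changes in cytosolic RNA that turned were Itpr1 -0.068 and Itpr2 -0.031 (1 h against control), Itpr1 0.025 and Itpr2 0.041 (16 h against control), Itpr1 0.094 and Itpr2 0.073 (16 h against 1 h) and Itpr3 0.071 (the inhibitor against control). With the replicate block and coding-length offsets together, the log2 changes in polysome RNA that turned were Atp2a2 -0.341, Itpr3 -0.071, Orai2 0.239 and Orai3 0.419 (1 h against control), Itpr3 -0.918, Orai2 0.284 and Orai3 0.192 (16 h against control), Itpr1 0.092 and Itpr2 0.346 (16 h against 1 h) and Itpr3 0.077, Stim1 0.408 and Stim2 0.319 (the inhibitor against 16 h). The analysis of partial variance had slopes on the cytosolic level from -0.159 (Itpr3) to 0.587 (Atp2a3), so its values are not changes of the ratio. Those that differed in sign from the ratio were Orai2 -0.353 (1 h against control), Itpr3 -1.865, Stim1 -0.065 and Orai2 0.214 (16 h against 1 h) and Itpr1 -0.461 and Itpr2 -0.379 (the inhibitor against control). That analysis also ended 6 calls, Atp2a3 (-0.601, limma adjusted p = 0.0793) and Orai3 (0.031, 0.931) at 1 h, Itpr3 at 16 h against control (0.006, 0.982), Atp2a3 (2.588, 0.393) and Orai3 (-0.229, 0.423) at 16 h against 1 h and Stim1 with the inhibitor against 16 h (-0.172, 0.343), and made 9 that edgeR did not. The cause of these turns was not tested beyond the offsets themselves. The replicate numbers were not taken as pairs, since not every pair's correlation passed 0.1 (11 of 24 in cytosolic RNA, 5 of 24 in polysome RNA): deviations of same-numbered cytosolic libraries correlated with a median r of 0.015 over 24 pairs (-0.7 to 0.84), and those of polysome libraries with -0.0338 (-0.644 to 0.732). The replicate block ended 2 calls, Orai2 in cytosolic RNA at 16 h against control (-0.202, edgeR adjusted p = 0.0503) and Orai3 in polysome RNA at 16 h against 1 h (-0.198, 0.0506), and without the sample block the ratio of Atp2a3 at 16 h against 1 h missed the threshold (0.0581). The polysome call of Orai3 at 16 h against 1 h was also lost with DESeq2's size factors (0.134) and without the filter (0.0761). Of the alternative values of family shares, 797 were rated the same. For other lengths this meant the same side of the threshold. With a replicate left out no test was run, and it meant a shift smaller than the larger SD of the 2 groups. Dividing by exon length moved the other 3: Itpr1 passed in cytosolic RNA with the inhibitor against 16 h (-7.26 points, exact permutation test, adjusted p = 0.0423), and Orai1 in that comparison (6.96 points, 0.139) and Orai3 at 1 h (-4.85 points, 0.111) did not. Depth limits Orai1 and, in control and at 1 h, Atp2a3, which had as few as 87 and 20 counts in a cytosolic library.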
